A study of Mus musculus with 8 samples.

Results

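The genes of oxidative phosphorylation were taken from the pancreas table by name: all symbols starting with mt-, Nduf, Uqcr, Cox4 to Cox8 or Atp5, and the genes Sdha to Sdhd. Of the 11789 genes listed, 93 had such a symbol, and 89 of them averaged 10 or more normalized counts over the 8 libraries, as did 10468 genes of any kind. Of these 89 members, 7 are encoded by the mitochondrial genome and 82 by nuclear chromosomes. The members just above the minimum were mt-Nd6 at a mean of 12.4, Ndufaf5 at 17.5, Ndufaf1 at 19.1 and Ndufaf3 at 19.7. Those just below it were Ndufaf6 at 7.31, Ndufaf2 at 7.15, Atp5s at 4.97 and Ndufa4l2 at 4.78, and these 4 were not analysed further. The rule is one of names, so it takes in complex I assembly factors (Ndufaf genes) beside subunits. The other protein-coding genes of the mitochondrial genome were not analysed here.

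RNA was measured in whole pancreas of mice aged 6 weeks, with 1 library per mouse. In 4 libraries the mice were wild type (WT). In the other 4 the genotype was Daxxfl/flPdx1-CreTg (DC): both copies of Daxx carry loxP sites, and a Cre recombinase transgene is driven by the Pdx1 promoter, which is active in the epithelial progenitors of the pancreas. Daxx is a chaperone that deposits the histone variant H3.3 in chromatin. The second group is called Daxx-deleted below. Libraries are numbered 1 to 4 within each genotype in the order of the sample list, because the labels give no replicate numbers. The design text gives 2 mice of each sex per genotype, and no label ties a sex to a library. There was no group with the Cre transgene alone or with the loxP sites alone, so effects of the transgene, of the loxP sites and of losing Daxx cannot be told apart. Stromal, blood and endothelial cells of the organ do not descend from Pdx1-expressing progenitors and keep Daxx.

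Oxidative phosphorylation makes ATP in the inner mitochondrial membrane. Complex I takes electrons from NADH and complex II from succinate, complex III passes them through cytochrome c to complex IV, and complex IV reduces oxygen. Complexes I, III and IV pump protons, and complex V, the ATP synthase, uses the returning protons to make ATP. Complexes I, III, IV and V are built from subunits of both genomes, whereas complex II is encoded in the nucleus alone. Mitochondrial genes are transcribed as long polycistronic RNAs by a dedicated polymerase and cut into single messengers, while each nuclear gene has a promoter of its own. In the pancreas, the acinar cells spend much ATP on making and secreting digestive enzymes.

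The members of the 2 genomes differ in base composition. The first 60 coding bases of 3 mitochondrial and 2 nuclear members are shown, on the coding strand, with the start codon in capitals; mitochondrial coordinates and sequences are of GRCm38.
mt-Co1, chrM:5328-5387, plus strand: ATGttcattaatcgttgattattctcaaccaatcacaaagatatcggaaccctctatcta
mt-Nd2, chrM:3914-3973, plus strand: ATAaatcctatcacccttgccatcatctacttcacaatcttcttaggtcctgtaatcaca
mt-Nd6, chrM:14011-14070, minus strand: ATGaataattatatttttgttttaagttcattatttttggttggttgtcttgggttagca
Atp5b: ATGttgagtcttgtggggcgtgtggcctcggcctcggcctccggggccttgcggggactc
Cox4i1: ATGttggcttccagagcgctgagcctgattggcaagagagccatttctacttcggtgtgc
Guanine and cytosine (GC) made up 39.9% of the whole coding sequence of mt-Co1, 35.7% of that of mt-Nd2 and 34.3% of that of mt-Nd6. They made up 53.2% in Atp5b, which encodes the catalytic beta subunit of the ATP synthase, and 53.5% in Cox4i1, a regulatory subunit of complex IV. mt-Nd2 starts with ATA, which the mitochondrial code reads as methionine. mt-Nd6 is the only one of the 7 mitochondrial members on the minus strand, and its sense strand is poor in C.

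The libraries held 7705789 to 10517508 reads on listed genes. Daxx was lower in all 4 Daxx-deleted libraries (26.8, 23.3, 29.2 and 32.5 normalized counts) than in the wild-type ones (39.7, 58.7, 46.7 and 45.2), with an exact permutation p of 0.0286, the smallest possible with 4 against 4, and a limma adjusted p of 0.9997. The summed level of 12 acinar markers was 3697735 to 5337006 normalized counts in every library, so the tissue carried its defining transcripts. Of 13 markers of brown fat and muscle, tissues rich in mitochondria, none was analysed here. In bulk tissue, fewer cells of a type and less RNA per cell cannot be told apart.

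Between the genotypes, no member of either genome was called, where a call is an adjusted p under 0.05 in limma over all 10468 genes. The background is that 0 of 10468 genes were called (0%), so the count of 0 among members says nothing particular about them. At an unadjusted p under 0.05, limma gave 302 of 10468 genes (2.88%) and 2 of the 89 members (2.25%): Ndufc2, which was lower in Daxx-deleted pancreas, and Atp5j, which was higher. The edgeR quasi-likelihood test and DESeq2, run on the recovered reads, also gave 2 members at an unadjusted p under 0.05, beside 2.86% and 2.09% of all genes. For 196 genes (1.87%) the 4 values of one genotype did not overlap the 4 of the other, and 1 of the 89 members (1.12%) was among them. By direction, 1.57% of genes were lower and 1.32% higher at an unadjusted p under 0.05, against 1 member each way. Without overlap, 1.04% of genes were lower in Daxx-deleted pancreas and 0.831% higher, and the 1 member was lower. The members' shares were near the background. Of the members, 34 had a fold change above 0 and 55 below it, so 38.2% were above 0 against 48.1% of all genes. Their median log2 fold change was -0.03, with a range of -0.59 to 0.36, beside -0.01 for all genes.

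The 7 mitochondrial members varied among mice far more than between genotypes, and 6 of the 7 had the same 4 libraries on top. mt-Co1 encodes the subunit of complex IV that holds the oxygen-reducing centre (ENSMUSG00000064351.1, chrM 5328 to 6872, plus strand). It had 10606, 5323, 6059.8 and 12642 normalized counts in wild-type libraries 1 to 4, and 8673, 10227, 4189 and 6335 in Daxx-deleted libraries 1 to 4. Wild-type libraries 1 and 4 and Daxx-deleted libraries 1 and 2 were high, the other 4 were low, and the genotypes overlapped. The means were 8658 ± 3537 (SD, n = 4) in wild type and 7356 ± 2649 (SD, n = 4) in Daxx-deleted pancreas. The log2 fold change, -0.22 ± 0.28 (SE), had a 95% interval of -0.81 to 0.37.

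mt-Cytb encodes cytochrome b of complex III (ENSMUSG00000064370.1, chrM 14145 to 15288, plus strand). It had 1839, 1071, 1088 and 1869.9 normalized counts in wild type and 1837, 1854, 960.2 and 1007 in Daxx-deleted pancreas. The same 4 libraries were high, at nearly one level, and the log2 fold change was -0.07 ± 0.24 (SE, exact permutation p = 0.5429).

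The other 5 mitochondrial members encode membrane subunits of complex I. mt-Nd1 (ENSMUSG00000064341.1, chrM 2751 to 3707, plus strand) had 1397, 659.9, 684 and 1432 normalized counts in wild type and 1249, 1338, 705 and 724 in Daxx-deleted pancreas. Its high and low libraries were those of mt-Co1, and its log2 fold change was -0.02 ± 0.27 (SE). mt-Nd2 (ENSMUSG00000064345.1, chrM 3914 to 4951, plus strand) had 258, 155, 140.2 and 263 in wild type and 345, 232, 135 and 143 in Daxx-deleted pancreas. The same split was seen, with Daxx-deleted library 1 on top, and the log2 fold change was 0.02 ± 0.27 (SE).

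mt-Nd4 (ENSMUSG00000064363.1, chrM 10167 to 11544, plus strand) varied least of the 7. It had 556, 436, 433 and 475.4 normalized counts in wild type and 582, 515, 432 and 307 in Daxx-deleted pancreas. Its log2 fold change was -0.08 ± 0.17 (SE). mt-Nd5 (ENSMUSG00000064367.1, chrM 11742 to 13565, plus strand) had 699, 501, 503 and 591 in wild type and 885, 635, 496 and 396 in Daxx-deleted pancreas, and its log2 fold change was 0.02 ± 0.20 (SE). In both, the 4 libraries that were high for mt-Co1 were again the 4 highest, although the gap to the rest was smaller.

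mt-Nd6 (ENSMUSG00000064368.1, chrM 13552 to 14070, minus strand) rested on few reads. It had 8.81, 7.83, 4.87 and 22.1 normalized counts in wild type and 28.9, 9.16, 9.37 and 8.40 in Daxx-deleted pancreas, from 5 to 28 reads per library. Wild-type library 4 and Daxx-deleted library 1 stood above the other 6, and the 95% interval of its log2 fold change of 0.33 ± 0.49 (SE) reached from -0.71 to 1.37. Its annotated end overlaps that of mt-Nd5 on the opposite strand, and whether the counting used strand was not given in the sources used here.

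**Figure D1:**
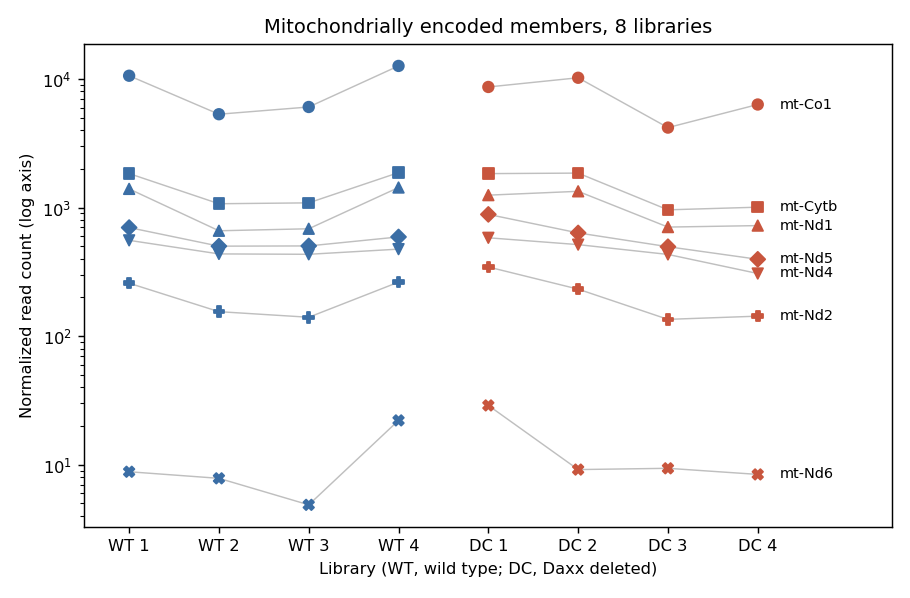
Level of each of the 7 mitochondrial members by library, on a log axis of normalized count; each point is 1 library, with wild-type (WT) and Daxx-deleted (DC) libraries 1 to 4 along the horizontal axis, and grey lines only join the points of a member within a genotype. In 6 of the 7 members the 4 highest libraries are wild-type 1 and 4 and Daxx-deleted 1 and 2, and mt-Co1 runs from 4189 to 12642.

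The spread of the mitochondrial members within a genotype was wide for this table. The within-genotype SD on the log2 scale was 0.56 for mt-Nd1, 0.56 for mt-Nd2 and 0.59 for mt-Co1, above those of 91.4% to 92.8% of all genes tested. It was 0.49 for mt-Cytb, 0.39 for mt-Nd5, 0.31 for mt-Nd4 (above 60.1% of genes) and 0.81 for mt-Nd6 (above 97.9%). The median was 0.56 over the 7 mitochondrial members, 0.18 over the 82 nuclear members and 0.27 over all genes. The ratio of the highest to the lowest library was 1.90 (mt-Nd4) to 5.94 (mt-Nd6), with a median of 2.24, and the median over the nuclear members was 1.46. The median half-width of the 95% interval of a genotype difference was accordingly 0.57 on the log2 scale for mitochondrial members, or 1.48-fold. For nuclear members it was 0.30, or 1.23-fold.

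Expressed as a share of all reads on listed genes, the 7 mitochondrial members held 0.166%, 0.0811%, 0.0950% and 0.187% in wild type and 0.171%, 0.189%, 0.0769% and 0.0873% in Daxx-deleted pancreas. The 95% Wilson intervals were narrow, for example 0.0751% to 0.0788% in the lowest library and 0.186% to 0.192% in the highest, and cover counting error only. The libraries thus split into 4 at 0.166% or more and 4 at 0.0950% or less, with 2 of each genotype on either side. The means were 0.132 ± 0.0521% (SD, n = 4) in wild type and 0.131 ± 0.0572% (SD, n = 4) in Daxx-deleted pancreas. With 27 digestive enzyme genes left out of the total, the shares were 0.559%, 0.310%, 0.324% and 0.654% in wild type and 0.533%, 0.583%, 0.278% and 0.330% in Daxx-deleted pancreas. The same 4 libraries remained the highest. mt-Co1 weighed most in these shares: it held 12036 of the 17435 mitochondrial reads in wild-type library 1 and 4022 of 6651 in Daxx-deleted library 3. The 82 nuclear members held 0.214%, 0.207%, 0.208% and 0.216% in wild type and 0.227%, 0.261%, 0.216% and 0.203% in Daxx-deleted pancreas. Daxx-deleted libraries 1 and 2 were the highest, and wild-type library 4 was level with Daxx-deleted library 3. The means were 0.211 ± 0.00443% (SD, n = 4) in wild type and 0.227 ± 0.0249% (SD, n = 4) in Daxx-deleted pancreas. Per read on a nuclear member there were 0.774, 0.393, 0.457 and 0.866 mitochondrial reads in wild type and 0.753, 0.725, 0.355 and 0.430 in Daxx-deleted pancreas.

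By mean log2 level, nuclear members did not share the split. The mean log2 level of the mitochondrial members, as a deviation from its mean over the 8 libraries, was 0.31, -0.35, -0.42 and 0.46 in wild type and 0.59, 0.24, -0.40 and -0.43 in Daxx-deleted pancreas, a range of 1.02. That of the nuclear members was 0.03, 0.03, -0.02 and 0.04 in wild type and -0.11, 0.05, -0.04 and 0.03 in Daxx-deleted pancreas, a range of 0.16. Each member had equal weight in these means, also mt-Nd6, which rested on 5 to 28 reads per library. Its highest value, 28.9, was in Daxx-deleted library 1 and its lowest, 4.87, in wild-type library 3. On this measure Daxx-deleted library 1 was the highest for mitochondrial members and the lowest for nuclear ones. By read share it was neither. Its mitochondrial share of 0.171% was below 0.187% in wild-type library 4 and 0.189% in Daxx-deleted library 2. Its nuclear share of 0.227% was above that of every library but Daxx-deleted library 2. The mitochondrial minus the nuclear mean log2 level was 1.94, 1.30, 1.28 and 2.09 in wild type and 2.37, 1.86, 1.31 and 1.21 in Daxx-deleted pancreas. The genotype means of this measure were 1.65 ± 0.43 (SD, n = 4) and 1.69 ± 0.54 (SD, n = 4).

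**Figure D2:**
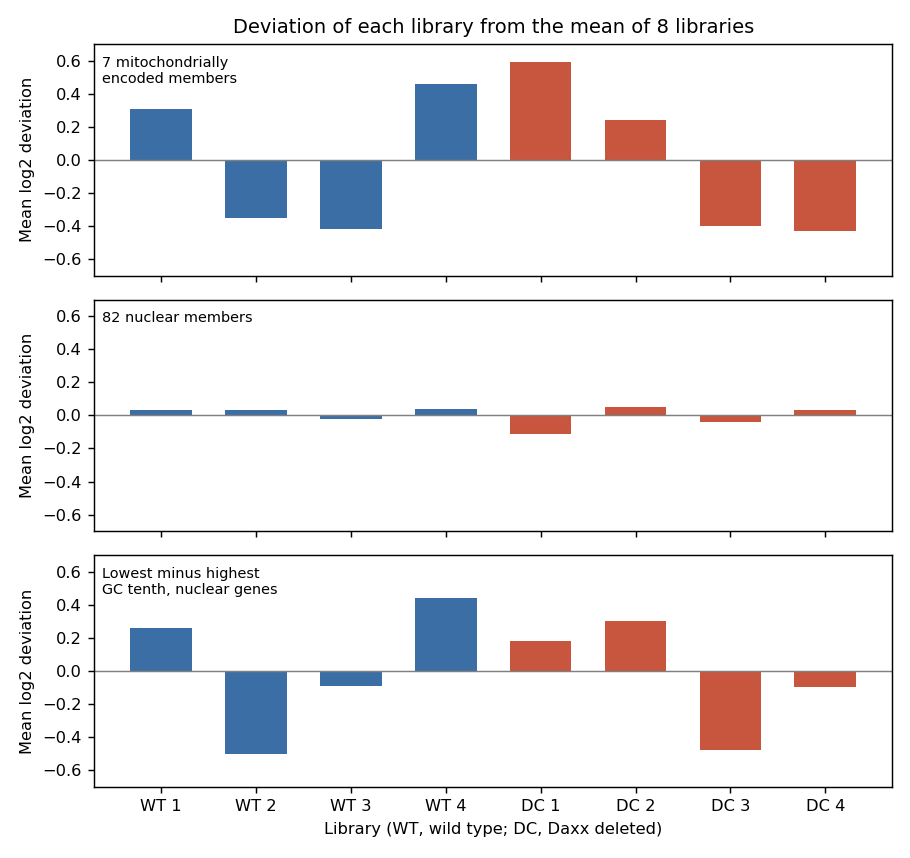
Mean log2 level of the mitochondrial and of the nuclear members in each library, as a deviation from the mean over the 8 libraries, above the same deviation for low-GC minus high-GC nuclear genes; each bar is 1 library, blue for wild type (WT) and red for Daxx-deleted (DC). The mitochondrial mean runs from -0.43 to 0.59 and the nuclear mean from -0.11 to 0.05.

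The mitochondrial members moved with the GC content of transcripts across libraries. As a measure of this, the mean log2 level of the 1046 nuclear-encoded genes of lowest GC content (34.8% to 43.4%) minus that of the 1045 of highest (58.4% to 69.3%) was taken, again as a deviation. It was 0.26, -0.50, -0.09 and 0.44 in wild type and 0.18, 0.30, -0.48 and -0.10 in Daxx-deleted pancreas, so it was above 0 in the 4 libraries that were high for mitochondrial members and below 0 in the 4 low ones. The 7 mitochondrial members have a GC content of 34.1% to 39.9%. The low-GC nuclear genes alone deviated by -0.28 to 0.25, a range of 0.53 against 1.02 for the mitochondrial members. These ranges are not like for like, because 1046 genes were averaged in one and 7 in the other, and their GC contents differ. After a trend on GC content was removed from each library, the mitochondrial deviations were 0.06, 0.04, -0.27 and 0.13 in wild type and 0.41, -0.03, 0.00 and -0.35 in Daxx-deleted pancreas, a range of 0.76. The order of the libraries changed with that step: wild-type library 2 was no longer low, and Daxx-deleted library 2 no longer high. Among nuclear members, the 27 of lowest GC content (42.0% to 49.5%) deviated by 0.07, -0.11, 0.00 and 0.14 in wild type and -0.04, 0.11, -0.14 and -0.03 in Daxx-deleted pancreas. The 28 of highest GC content (54.0% to 60.7%) deviated by -0.02, 0.16, -0.05 and -0.04 in wild type and -0.16, -0.03, 0.07 and 0.07 in Daxx-deleted pancreas. Daxx-deleted library 1, the highest for mitochondrial members by mean log2 level, was below 0 in both, at -0.04 and -0.16. All nuclear members together were at -0.11 in that library. The 27 lay above the 28 in wild-type libraries 1, 3 and 4 and Daxx-deleted libraries 1 and 2, and below them in the rest. The part of GC content in the mitochondrial split was not tested.

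The summed level of the 12 acinar markers ran opposite to the split. It was 4576086, 5261543, 4635107 and 4475299 normalized counts in wild type and 3862323, 3697735, 4599701 and 5337006 in Daxx-deleted pancreas, so its 4 lowest libraries were the 4 that were high for mitochondrial members. The gap between wild-type library 1 and Daxx-deleted library 3, on either side, was small. The share of reads on the 20 genes with the most reads was likewise lowest in those 4, at 77.6% and 77.5% in wild-type libraries 1 and 4 and 74.7% and 75.2% in Daxx-deleted libraries 1 and 2. In the other 4 it was 77.8% to 80.3%. The share of reads on the 27 digestive enzyme genes was 70.3%, 73.9%, 70.7% and 71.4% in wild type. In Daxx-deleted pancreas it was 68.0%, 67.5%, 72.3% and 73.5%. Wild-type library 3 lay below wild-type library 4, so this share did not divide the libraries as the split did. These measures may share genes.

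The other measures of the libraries examined did not divide them in this way. Summed reads of Y-linked genes were 0, 0, 288 and 325 normalized counts in wild type and 0, 1.67, 174 and 289.8 in Daxx-deleted pancreas, so libraries with and without them lay on both sides. Within Daxx-deleted pancreas they divided the libraries as the split did, and within wild type they did not. The contrast of short with long transcripts was -0.05, 0.09, 0.04 and 0.04 in wild type and -0.18, -0.06, 0.08 and 0.04 in Daxx-deleted pancreas. It was below 0 only in wild-type library 1 and Daxx-deleted libraries 1 and 2, whereas wild-type library 4 was at 0.04. The sum of the islet markers was 7977, 2195, 4402 and 3329.8 normalized counts in wild type and 1745, 1910.1, 7655 and 4095 in Daxx-deleted pancreas. Duct markers summed to 1025 to 1278, stroma markers to 2784 to 5229, endothelial markers to 468 to 699, 4 of 6 immune markers to 170.1 to 434, 3 of 4 white fat markers to 58.4 to 242, and erythroid markers to 257 to 567. None of these 7 marker sums had either its 4 highest or its 4 lowest libraries in wild-type 1 and 4 and Daxx-deleted 1 and 2. The part of these measures, of the acinar markers, of the leading genes' share and of the digestive enzyme share in the split was not tested.

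Among the nuclear members, 31 of 82 had a fold change above 0 and 51 below it, with a median of -0.03 that became 0.10 when library totals were made equal, a step that moved the median of all genes to 0.11. The 7 mitochondrial members divided into 3 above and 4 below, with a median of -0.02 and a range of -0.22 to 0.33. The median of all genes was -0.01. The complexes are described in the order in which electrons pass through them.

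**Figure D3:**
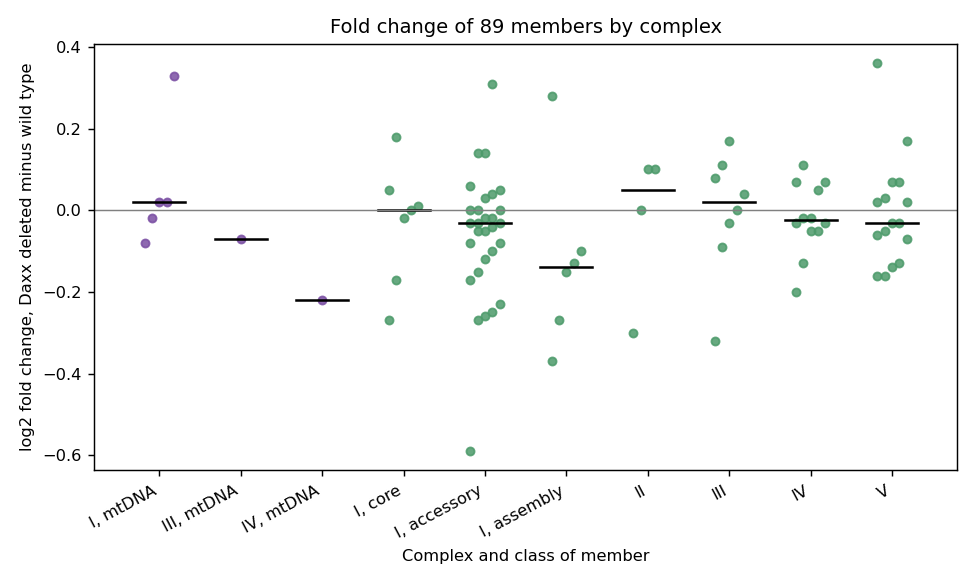
Log2 fold change of each of the 89 members, Daxx-deleted over wild type, by complex and encoding genome; each point is 1 member and each black line a median. Values run from -0.59 (Ndufc2) to 0.36 (Atp5j), and every group of nuclear members lies on both sides of 0.

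The 7 nuclear core subunits of complex I, which carry the flavin and the iron-sulfur clusters, had 3 fold changes above 0 and 4 below, with a median of -0.00 and a range of -0.27 to 0.18. Ndufv2, an iron-sulfur subunit of the NADH-oxidising arm, had 149.8, 166, 139 and 170.0 normalized counts in wild type and 139, 139.9, 110.4 and 127 in Daxx-deleted pancreas. Its values met at 139, and its log2 fold change was -0.27 ± 0.14 (SE, exact permutation p = 0.0857). Ndufs1, the largest core subunit, had 196 ± 16.6 (SD, n = 4) in wild type and 224 ± 34.6 (SD, n = 4) in Daxx-deleted pancreas.

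The 29 accessory subunits of complex I, which surround the core and are needed for its assembly and stability, had 9 fold changes above 0 and 20 below, with a median of -0.03. Ndufc2, an accessory subunit of the membrane arm, was the lowest of all 89 (ENSMUSG00000030647.8, chr7 97400003 to 97407802, plus strand). It had 67.9, 62.6, 52.6 and 60.2 normalized counts in wild type and 42.3, 45.8, 35.4 and 36.7 in Daxx-deleted pancreas, from 34 to 77 reads per library. Every Daxx-deleted library was below every wild-type one, and Ndufc2 was the 1 member without overlap. The means were 60.8 ± 6.35 (SD, n = 4) and 40.1 ± 4.86 (SD, n = 4), and the log2 fold change of -0.59 ± 0.17 (SE) had bounds of -0.96 and -0.22 at 95%. The exact permutation p was 0.0286, the smallest the design allows, and the limma adjusted p was 0.9997, so the difference did not pass the correction. Over all alternatives of the analysis its log2 fold change was -0.66 to -0.47 and its smallest adjusted p 0.9645. With library totals made equal its groups overlapped.

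The other accessory subunits named showed no separation. Ndufa13, the accessory subunit with the most reads, had 416, 480.0, 345 and 375 normalized counts in wild type and 345, 393, 458 and 417 in Daxx-deleted pancreas. The log2 fold change was 0.00 ± 0.13 (SE). Ndufb9 had 203, 243, 180.1 and 197 in wild type and 160.0, 193, 160.4 and 165 in Daxx-deleted pancreas, where library 2 stood apart and overlapped the wild type. Its log2 fold change was -0.27 ± 0.13 (SE, exact permutation p = 0.0571).

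Of the 6 Ndufaf assembly factors above the minimum, 1 had a fold change above 0 and 5 below, with a median of -0.14, at low levels. Ndufaf4 had 30.0, 26.1, 43.8 and 82.3 normalized counts in wild type and 48.5, 53.3, 29.2 and 28.3 in Daxx-deleted pancreas, with a log2 fold change of -0.10 ± 0.32 (SE). Ndufaf3 was at 16.7 to 17.7 in wild type and at 25.8, 23.3, 28.1 and 11.5 in Daxx-deleted pancreas, where library 4 lay below every wild-type value. Ndufaf1 had 22.9, 15.7, 26.3 and 20.4 in wild type and 27.9, 15.0, 11.5 and 13.6 in Daxx-deleted pancreas, and its ranges overlapped.

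Complex II, which also works in the citric acid cycle, had 2 subunits above 0 and 2 below, with a median of 0.05. Sdha, the flavoprotein that oxidises succinate, had 467, 424, 423 and 508 normalized counts in wild type and 420.1, 491, 464 and 443 in Daxx-deleted pancreas. The means were equal at 455, with SDs of 40.8 and 30.1 (n = 4 each). Sdhc, a membrane anchor, had 148, 176, 205 and 177 in wild type and 111, 142, 177 and 148 in Daxx-deleted pancreas. The groups overlapped, with a log2 fold change of -0.30 ± 0.16 (SE). Sdhb, the iron-sulfur subunit, had 346 ± 26.9 (SD, n = 4) and 372 ± 36.1 (SD, n = 4).

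The 8 nuclear members of complex III divided into 5 above 0 and 3 below, with a median of 0.02. Uqcrc1, a core protein of the matrix side, had 482, 553, 537 and 486 normalized counts in wild type and 479, 476, 486 and 492 in Daxx-deleted pancreas. The Daxx-deleted libraries had an SD of 7.51 (n = 4) against 35.7 (n = 4) in wild type, and the log2 fold change was -0.09 ± 0.10 (SE). Uqcrc2, the other core protein, had 364, 319.5, 312 and 313 in wild type and 360.3, 419, 354 and 341 in Daxx-deleted pancreas. Wild-type library 1 alone reached the Daxx-deleted range, and the log2 fold change was 0.17 ± 0.11 (SE). Uqcrb, a small subunit near the quinone pocket, had 152, 102, 111 and 195 in wild type and 97.0, 151, 88.5 and 106 in Daxx-deleted pancreas. Its log2 fold change was -0.32 ± 0.21 (SE), and it has near-identical copies in the genome.

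Complex IV had 4 of 12 nuclear members above 0 and 8 below, with a median of -0.02 and a range of -0.20 to 0.11. Cox4i1, its member with the most reads, had 701, 805, 724 and 626 normalized counts in wild type and 685, 689, 701 and 729.7 in Daxx-deleted pancreas. The 4 Daxx-deleted values lay inside the wild-type range, with a log2 fold change of -0.02 ± 0.10 (SE). Cox8a had 174, 209, 199.6 and 209 in wild type and 127, 208, 195 and 168 in Daxx-deleted pancreas, where library 1 was the lowest. Its log2 fold change was -0.20 ± 0.15 (SE). Cox5b had 159 ± 16.1 (SD, n = 4) and 146 ± 23.8 (SD, n = 4).

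Complex V had 7 of 16 members above 0 and 9 below, with a median of -0.03. Atp5b, the catalytic beta subunit and the nuclear member with the most reads, had 2647, 2714, 2850.3 and 2714 normalized counts in wild type and 2296, 2776, 2628 and 2879 in Daxx-deleted pancreas. Its log2 fold change was -0.05 ± 0.10 (SE). Atp5j, coupling factor 6 of the stalk, had 136, 115, 115 and 151 in wild type and 168, 183, 164 and 145 in Daxx-deleted pancreas. Of the Daxx-deleted libraries only library 4 fell within the wild-type range. The means were 129 ± 17.8 (SD, n = 4) and 165 ± 15.8 (SD, n = 4), and the log2 fold change of 0.36 ± 0.14 (SE) had bounds of 0.06 and 0.65 at 95%. The exact permutation p was 0.0571 and the limma adjusted p 0.9997. Atp5d, the delta subunit of the central stalk, had 291, 372, 293 and 289.5 in wild type and 248, 252, 338 and 279 in Daxx-deleted pancreas, and the groups overlapped.

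**Figure D4:**
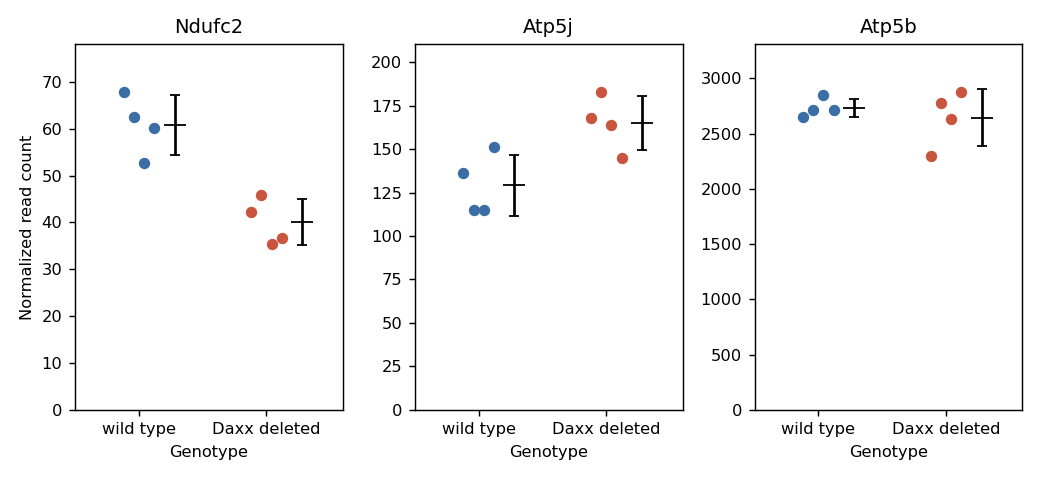
Normalized counts of Ndufc2, Atp5j and Atp5b in the 4 wild-type and 4 Daxx-deleted libraries; points are libraries, and the black marks give mean ± SD (n = 4). Ndufc2 is at 52.6 to 67.9 against 35.4 to 45.8, Atp5j at 115 to 151 against 145 to 183, and Atp5b at 2647 to 2850.3 against 2296 to 2879.

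Several subunits of complexes IV and V are made in isoforms from separate genes, with some in most tissues and others mainly in heart and skeletal muscle. The members above the minimum were the widely made forms Cox4i1, Cox6a1, Cox6b1, Cox7a2 and Cox8a, with Cox7a2l and Ndufa4. None of them separated the genotypes. Cox6a1 had 282 ± 30.6 against 277 ± 32.1, Cox6b1 244 ± 30.5 against 239 ± 31.8, and Cox7a2 222 ± 16.3 against 219.7 ± 23.9 normalized counts, wild type first (SD, n = 4 each). Cox7a2l, which takes part in joining complexes III and IV, had 132 ± 19.3 against 137 ± 20.6. Ndufa4, first named as a complex I subunit and later placed in complex IV, had 174 ± 19.6 against 169 ± 28.7. The membrane ring of the ATP synthase is built from 1 protein encoded by Atp5g1, Atp5g2 and Atp5g3. Atp5g1 had 549, 618, 531 and 569 in wild type and 529, 555, 524 and 619 in Daxx-deleted pancreas, and its log2 fold change was -0.03 ± 0.11 (SE). Atp5g2 had 77.6 ± 8.05 against 81.5 ± 11.9 and Atp5g3 264 ± 16.7 against 271 ± 16.1.

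Levels of different genes are comparable only per length, and the length chosen decides the size of the gap between genomes. In normalized counts per kilobase of all annotated exon, the mitochondrial order was mt-Co1 at 5182, mt-Cytb at 1259, mt-Nd1 at 1069.6, mt-Nd4 at 339, mt-Nd5 at 322, mt-Nd2 at 201 and mt-Nd6 at 24.0. Over libraries, mt-Co1 ranged from 2711 to 8182, above all ranges of the others. The ranges of mt-Cytb (839 to 1634) and mt-Nd1 (689.6 to 1497) overlapped, as did those of mt-Nd4 (222 to 423), mt-Nd5 (217 to 485) and mt-Nd2 (130.4 to 332). mt-Nd6 was below all, at 9.38 to 55.7. mt-Co1, mt-Nd4 and mt-Nd5 lie on the same strand of the circular genome.

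Per kilobase of exon, the median was 339 for mitochondrial members, 104 for nuclear members and 14.8 for all genes. Nuclear exon unions include alternative and untranslated exons that a given messenger may lack. Per kilobase of the median coding transcript, the nuclear median was 239 and that of all genes 31.9, whereas the mitochondrial median stayed 339. The ratio of mitochondrial to nuclear medians was therefore 3.24 with one length and 1.42 with the other. The mitochondrial median is the level of mt-Nd4 and covers only the 7 genes analysed, 5 of them of complex I. On the coding transcript scale Atp5b, at 1403, exceeded mt-Cytb, and Cox4i1 reached 949.6, Uqcrc1 936 and Atp5a1 734. Median levels on that scale were lowest for the complex I assembly factors, and 193 for accessory and 202 for core subunits of complex I, 224 for complex II, 325 for complex IV, 356 for complex V and 461 for complex III. The median length was taken over all protein-coding transcripts, and partial transcripts were not left out. It was 533 bases for Uqcrc1 and 651 for Ndufs1, beside exon unions of 4135 and 8086. A length that is too short raises the level, so the level of Uqcrc1 and the order of the complexes are uncertain. Ndufb2 was lowest, at 12.1. Of the ATP synthase ring genes, Atp5g3 had 372, Atp5g1 210.0 and Atp5g2 116. Transcripts of other genes at least 95% identical over at least 50% of the length were found for 7 nuclear members (Ndufs3, Atp5k, Atp5l, Atp5h, Uqcrb, Atp5o and Ndufb11) and for 3 mitochondrial ones (mt-Co1, mt-Nd4 and mt-Nd5). How reads shared with such copies were counted was not given in the sources used here, so the values of these members are uncertain.

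**Figure D5:**
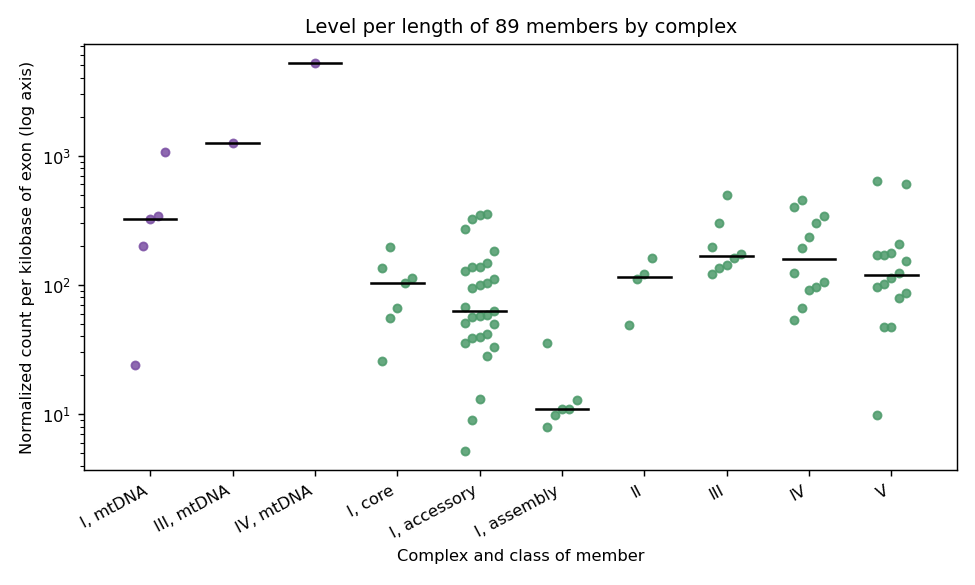
Normalized counts per kilobase of exon union for each of the 89 members, by complex and encoding genome, on a log axis; each point is 1 member, averaged over the 8 libraries, and each black line a median. mt-Co1 is highest at 5182 and Ndufb2 lowest at 5.18, and the mitochondrial and nuclear medians are 339 and 104.

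Nuclear respiratory genes are known to be driven in part by the factors NRF1, GABP (of the ETS family) and YY1. RefSeq promoters of GRCm38.p6, from 250 bases before to 50 after the start, were found for 69 of the 82 nuclear members. The palindromic NRF1 motif is shown in capitals for 3 of the members that hold it, from complex V, complex IV and the assembly of complex I, each on the gene's own strand in GRCm38.p6.
Atp5g2, chr15:102671060-102671109, minus strand: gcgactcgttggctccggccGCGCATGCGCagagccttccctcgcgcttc
Cox6a1, chr5:115349091-115349140, minus strand: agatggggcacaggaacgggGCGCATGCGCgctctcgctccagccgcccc
Ndufaf4, chr4:24897950-24897999, plus strand: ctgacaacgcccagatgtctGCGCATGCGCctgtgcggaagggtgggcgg
The motif starts 42 bases before the annotated start in Atp5g2, 162 in Cox6a1 and 113 in Ndufaf4.

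Each motif was searched on both strands of these promoters. The NRF1 palindrome occurred in 7 members (10.1%), against 2.56% of the 8285 tested genes with a promoter and 1.07% of all 27025 genes with a promoter. These members were Atp5g2, Atp5k, Cox6a1, Ndufa11, Ndufaf4, Ndufaf5 and Uqcrc1. A looser form, the same letters with any base at the fifth position, takes in the palindrome and occurred in 27.5% of members, 12.4% of tested genes and 5.19% of all. The ETS motif CCGGAAG occurred in 26.1%, 21.3% and 9.93%, and the YY1 motif AAGATGGC in 14.5%, 5.65% and 3.19%. At least 1 motif was found in 40 members (58.0%), in 34.3% of tested genes and in 16.4% of all genes with a promoter. A match describes the letters and does not show that a factor was bound. Of the members with the palindrome, Atp5g2 had a log2 fold change of 0.07, Cox6a1 of -0.03, Ndufaf4 of -0.10 and Uqcrc1 of -0.09. Ndufaf5 was at -0.27, Atp5k at -0.16 and Ndufa11 at -0.03. None was called, and neither was any other of the 10468 genes tested by limma.

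Other genes of the pathway were followed in 8 lists. Of their 189 genes tested, 0 were called by limma at an adjusted p under 0.05, with 4 (2.12%) at an unadjusted p under 0.05 in each of limma, edgeR and DESeq2, beside 2.88%, 2.86% and 2.09% of all genes. The groups did not overlap for 4 of the 189 (2.12%), beside 1.87% of all genes. Genes that copy and transcribe mitochondrial DNA or process its RNA (22 of 27 tested) had 13 fold changes above 0 and 9 below, with a median of 0.02. Their mean log2 level deviated by 0.03, -0.11, 0.02 and 0.09 in wild type and 0.06, 0.00, 0.01 and -0.10 in Daxx-deleted pancreas, a range of 0.20 against 1.02 for the mitochondrial members. Supv3l1, a helicase that takes part in degrading mitochondrial RNA, had 53.8 ± 9.24 (SD, n = 4) normalized counts in wild type and 35.6 ± 8.55 (SD, n = 4) in Daxx-deleted pancreas, with -0.60 ± 0.22 (SE) as its log2 fold change. Its groups overlapped, with an exact permutation p of 0.0571 and a limma adjusted p of 0.9997. The 75 genes of the mitochondrial ribosome divided into 36 above 0 and 39 below, with a median of -0.00, and 10 translation factors into 4 and 6, with a median of -0.11.

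Assembly factors outside the name rule (29 of 32 tested) had 10 above 0 and 19 below, with a median of -0.08. Sco1, which delivers copper to complex IV, had 37.9, 41.7, 39.9 and 54.9 normalized counts in wild type and 35.1, 25.8, 31.2 and 24.1 in Daxx-deleted pancreas. Every Daxx-deleted value was below every wild-type one, with a log2 fold change of -0.57 ± 0.21 (SE, exact permutation p = 0.0286). Of the 17 enzymes of the citric acid cycle, 10 were above 0 and 7 below, with a median of 0.01. Idh3a, a catalytic subunit of the NAD-dependent isocitrate dehydrogenase, had 83.7, 66.5, 80.8 and 111 in wild type and 115, 126, 117 and 113 in Daxx-deleted pancreas. Every Daxx-deleted value was above every wild-type one, with a log2 fold change of 0.48 ± 0.16 (SE, exact permutation p = 0.0286). Neither Sco1 nor Idh3a passed the correction over all genes.

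Regulators of mitochondrial biogenesis (14 of 15 tested) had 6 above 0 and 8 below, with a median of -0.02. Ppargc1a, a coactivator that raises respiratory gene expression, had 22.9, 31.3, 30.2 and 41.6 normalized counts in wild type and 39.2, 46.6, 45.8 and 33.6 in Daxx-deleted pancreas. The groups overlapped, with a log2 fold change of 0.40 ± 0.22 (SE). Other subunits and electron carriers (9 of 12 tested) had 4 above 0 and 5 below, and outer membrane and import genes 7 of 13 above 0, with medians of -0.06 and 0.01.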

How the data were processed

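Per the labels' protocols, flash-frozen pancreas was extracted with TRIzol and sequenced from TruSeq Stranded Total RNA libraries. The deposited values are a signal, read counts that the authors divided by 1 size factor per library. STAR 2.6.0b, DESeq2 and GRCm38 are named per the submitters' processing notes; the counter and annotation were not given in the sources used here. Whole reads were recovered for 100.0% of values within a tolerance of 0.001.

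Genes with a mean of at least 10 were tested as log2(value + 1), which understates changes of low genes, with limma 3.58.1 (R 4.3.3, trend, genotype only, Benjamini-Hochberg adjustment, two-sided). Exact two-sided permutation tests used all 70 relabellings. The edgeR 4.0.16 quasi-likelihood test called 0 genes of the recovered reads and DESeq2 1.42.0 called 1. The limma step was tested on simulated data. Wilson intervals are at 95%.

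Named members were those of the mitochondrial genome, the member of highest mean and the 2 of smallest p in each nuclear group, isoform families, members without overlap, and 1 gene per other list. The values of 1 named member are not reported here. Members and lists were chosen with earlier results of these data known. Coordinates and GC content are from GENCODE M21 (GRCm38), to which 11781 gene IDs matched. Removal of a GC trend was chosen after seeing the data. The alternatives were other scalings, filters, pseudocounts, tools, a Y-linked covariate and leaving out each library.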

Additional observations from a re-analysis of the deposited data

Results flagged for a closer look

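In a check for a library that stood apart within its group of 4, 4 of 72 groups of named members were picked out, and chance alone picks out about 1 in 20. mt-Nd6 was at 28.9 normalized counts in Daxx-deleted library 1, against 8.40 to 9.37 in the other 3 of its group. Ndufb9 was at 193 in Daxx-deleted library 2, against 160.0 to 165. Uqcrc2 was at 364 in wild-type library 1, against 312 to 319.5. Atp5d was at 372 in wild-type library 2, against 289.5 to 293.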

How the results depend on the processing

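No member was called under any alternative run. The median log2 fold change of the 82 nuclear members was 0.10 with library totals made equal, where the median of all genes was 0.11 and that of the mitochondrial members 0.10, so neither moved away from all genes. Members without overlap were 2 with equal totals (Ndufb3 and Uqcrfs1, 3.26% of all genes), 2 with quantile normalization (Ndufc2 and Uqcrfs1, 1.86%) and 2 after removal of a GC trend (Ndufc2 and Ndufv2, 2.41%). The ratio of mitochondrial to nuclear medians per length was 1.42 with coding transcripts in place of exon unions.

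Leaving out 1 library in turn gave 2 to 6 members without overlap: 2, 2, 5 and 3 without wild-type libraries 1 to 4, beside 3.72%, 5.34%, 3.78% and 3.77% of all genes, and 6, 3, 5 and 3 without Daxx-deleted libraries 1 to 4, beside 4.26%, 4.54%, 3.96% and 4.17%. The mitochondrial median was -0.21 (without Daxx-deleted library 1) to 0.12 (without wild-type library 1 or Daxx-deleted library 4), the nuclear median -0.05 to 0.02, the mitochondrial minus nuclear difference -0.19 to 0.19, and the difference in read share -0.0207 to 0.0170 percentage points. Of 752 fold changes of the 36 named members over 21 settings, 72 in 22 members changed sign, the largest from a main size of 0.33. No paired analysis was run, because the labels tie no wild-type mouse to a Daxx-deleted one. mt-Nd6 rested on 5 to 28 reads per library.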
